A study of Mus musculus with 20 samples.

Results

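Kidneys that had been preconditioned and then injured (IPC+IRI) were compared with uninjured kidneys of mice given hemin (Hemin). The comparison used 4 arrays labelled kidney_IPC+IRI and 4 labelled kidney_Hemin, 8 of the 20 arrays of the series, all 8 scanned on the same day. The animals were male C57BL/6 mice of 8 to 12 weeks. In IPC+IRI both renal pedicles were clamped for 15 min, the mice recovered for 7 days, and both pedicles were then clamped for 45 min, with the kidneys taken 6 h after reperfusion. In Hemin the mice received 25 mg/kg hemin intraperitoneally and no ischemia, and a sham operation is not mentioned. The time from hemin to kidney removal in these mice is not stated in the labels. RNA came from whole kidney. Per the labels the replicates are separate samples, with nothing said of whether each came from its own mouse. The p-values therefore measure the spread between arrays of a group, estimated over all 20 arrays of the series.

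The 2 groups differ in injury, in preconditioning and in hemin at once, and their arrays sat on separate slides, so these 4 factors cannot be told apart in any difference below. Renal ischemia starves the tubule cells of oxygen, and reperfusion adds oxidants. Cells respond within hours with immediate early transcription factors, with the unfolded protein and heat shock programmes and with chemokines that draw neutrophils. Hemin is an iron porphyrin whose heme moiety induces heme oxygenase 1 (Hmox1), the enzyme that opens the heme ring to biliverdin, carbon monoxide and iron. Ischemic preconditioning and hemin are both used to make the kidney more resistant to a later ischemia.

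All levels below are log2 of the Agilent processed signal divided by the 75th percentile of the same array, so 0 is the 75th percentile. Levels can be compared between arrays for 1 gene and not between genes. The 75th percentile itself ran from 221.6 to 303.7 signal units in IPC+IRI and from 255.7 to 323.5 in Hemin, and 62.5% to 66.1% and 64.2% to 67.4% of gene names were well above background. The lowest correlation between arrays of 1 group was 0.973 in IPC+IRI and 0.989 in Hemin, and the highest between the groups was 0.965. All 12 kidney epithelial markers listed, among them Umod of the thick limb, Slc34a1 and Kap of the proximal tubule and Aqp2 of the collecting duct, were well above background on all 8 arrays.

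Of 18544 genes tested by limma with Benjamini-Hochberg adjustment, 978 (5.27%) were at least 2-fold higher in IPC+IRI than in Hemin at an adjusted p below 0.05, and 1000 (5.39%) were at least 2-fold lower. At the same adjusted p and any fold, 2440 genes (13.2%) were higher and 4233 (22.8%) lower. The 4 arrays of IPC+IRI lay wholly above those of Hemin for 2600 genes (14%) and wholly below for 4573 (24.7%). The median difference over all genes tested was -0.15 on the log2 scale. The balance of rises and falls depended on the processing. With normexp background correction, run with an offset of 50 signal units that is added to every signal and by itself narrows the differences of dim genes, 422 genes were 2-fold higher and 120 lower, without scaling between arrays 761 and 1383, and with the deposited matrix 656 and 1060, so that the share of calls that were rises went from 49.4% to 77.9%, 35.5% and 38.2%. The median over all genes was -0.0038 with normexp and -0.28 without scaling. The shares of the correction and of the offset in what changed with normexp, here and below, were not separated. Among called genes well above background on all 8 arrays with separate groups, the largest rise, 8.36 on the log2 scale for Krt20, was larger than the largest fall, -3.24 for Sox18. Among the 15 largest rises under the same limit were Map3k6, a kinase of the stress kinase cascade (3.97), Sphk1, which makes sphingosine 1-phosphate (3.92), and 1700109H08Rik (4.16), which belong to none of the lists below. Beside the counts of a list, brackets give the shares of its tested members that were higher and lower, to be read against the 13.2% and 22.8% of all genes. Where 8 alternatives of background correction, scaling, probe averaging and the deposited matrix moved a count of 4 or more by over 1.5 times, the range of that count over them follows, and where leaving out 1 array or another alternative did so, that count is given too. The counts of the cell type marker lists, from neutrophils to other tissues, were not rerun under the alternatives, so none has a range. Of the 799 members tested over all lists, each counted in every list that holds it, 769 were bright enough in both groups. The other 30 entered through the brighter group alone, which favours a call in its direction, and 11 of them were called higher and 2 lower. The cytokine and neutrophil lists hold 4 and 3 of these and are also given without them, and no other list holds more than 1.

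**Figure D1:**
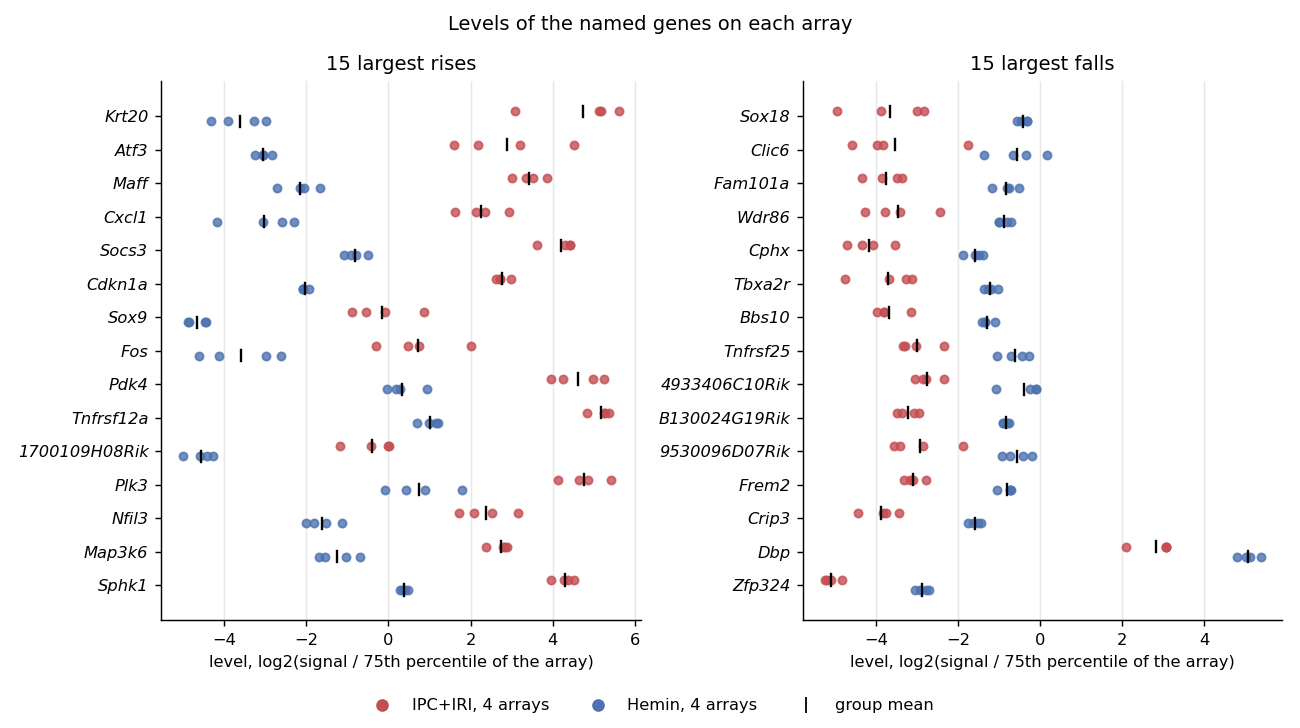
Level on each of the 8 arrays (x axis, log2 of signal over the 75th percentile of the array) of the 15 largest rises and 15 largest falls in IPC+IRI (red) against Hemin (blue) among called genes well above background on all 8 arrays, each dot an array and each black tick a group mean of 4 arrays. In every row the red and blue dots do not overlap, which was part of the rule that chose these genes, and Krt20 shows the widest separation (8.36).

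The list of immediate early factors, most of them transcription factors that are switched on without new protein synthesis, rose almost as a whole. Of 32 members measured, 29 were tested, of which 28 were higher and 0 lower at an adjusted p below 0.05 (96.6% and 0%), 25 of them at least 2-fold, with a median of 2.56 against -0.15 over all genes. Fos, the partner of Jun in AP-1, read 2.00, 0.74, 0.48 and -0.29 in IPC+IRI and -4.62, -2.61, -4.13 and -2.97 in Hemin. The groups did not overlap, replicate 1 of IPC+IRI was the highest, and the difference was 4.32 (SE 0.67, adjusted p = 0.000103). Atf3, a stress-induced factor of the ATF/CREB family, read 4.51, 2.19, 3.21 and 1.59 against -3.25, -3.04, -3.05 and -2.84. Its IPC+IRI arrays spread over almost 3 log2 units and its Hemin arrays lay close together, with a difference of 5.92 (SE 0.58, adjusted p = 9.4e-07). Maff, a small Maf protein that pairs with CNC factors such as Nrf2 and Bach1, read 3.86, 3.36, 3.52 and 3.00 against -2.05, -2.72, -1.66 and -2.16, a 47.9-fold difference. Fosl1, another Fos protein, was not well above background on any Hemin array and was at least 78.1-fold higher in IPC+IRI (adjusted p = 6.77e-11). Egr1 (9.06-fold), Nr4a1 (9.18-fold), Klf6 (10.1-fold) and Myc (8.9-fold) rose by similar factors, and Mafg, which is present in most cells, rose by 1.33-fold, a call lost with normexp (0.30, adjusted p = 0.1).

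The promoter of Maff is shown because it holds a complete cyclic AMP response element (TGACGTCA), the palindrome bound by the CREB and ATF proteins to which Atf3 belongs. The window is the 250 bases before 1 of its 3 annotated starts, chr15:79347270-79347519 on the plus strand of GRCm38.p6 from RefSeq, written 5′ to 3′ with the element, at position -29 from the start, in capitals.
Maff: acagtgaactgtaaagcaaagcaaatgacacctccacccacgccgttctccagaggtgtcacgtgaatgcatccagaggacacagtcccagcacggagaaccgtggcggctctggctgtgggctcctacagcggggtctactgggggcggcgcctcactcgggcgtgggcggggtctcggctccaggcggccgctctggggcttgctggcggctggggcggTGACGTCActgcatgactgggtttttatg
The same 8 letters were found in 1.55% of all 32851 promoters. In the immediate early list 2 of 34 promoters (5.88%) held them, and 1 of the 2 is the promoter shown.

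Dual specificity phosphatases remove phosphate from the MAP kinases that drive the immediate early genes. Of 11 tested, 9 were higher and 1 lower (81.8% and 9.09%). Dusp8, which acts on JNK and p38, read 0.33, 0.018, 0.20 and -0.49 in IPC+IRI and -3.13, -3.04, -2.80 and -3.13 in Hemin, an 8.22-fold rise with no overlap. Dusp10 rose by 8.79-fold, Dusp2 by 5.51-fold, Dusp14 by 3.24-fold and Dusp1 by 2.77-fold. Dusp9 went the other way, with -1.41, -2.54, -1.66 and -2.57 in IPC+IRI against -0.52, 0.059, -0.55 and -0.40 in Hemin. Its Hemin arrays were all higher, and the fall was -1.69 (SE 0.26, adjusted p = 1e-04).

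Of 30 genes that mark injured tubules, 20 were higher and 0 lower (66.7% and 0%), 17 at least 2-fold, with a median of 1.31. Krt20, an epithelial keratin, read 3.07, 5.17, 5.12 and 5.61 in IPC+IRI and -2.98, -3.91, -3.26 and -4.32 in Hemin, the largest rise among the named genes (329-fold, SE 0.81 on the log2 scale, adjusted p = 8.02e-07). Havcr1, which encodes kidney injury molecule 1, read 0.97, 0.99, 2.81 and 1.62 against -0.089, 0.21, 0.26 and -0.60. The groups were separate but close, and the difference of 1.65 (SE 0.33, adjusted p = 0.000862) was smaller than that of Krt20. Its 2 probes gave 1.19 and 3.61. Lcn2, the iron-siderophore binding protein NGAL, read -1.03, -0.90, -0.20 and -0.50 against -4.14, -3.58, -2.89 and -5.07, a 9.58-fold rise with no overlap. Sox9, a factor of regenerating tubule cells, rose by 22.8-fold, with 3 probes that ranged from 0.061 to 5.37. Tnfrsf12a, the receptor of TWEAK, rose by 18-fold, Plaur, the urokinase receptor, by 11.7-fold, and Cd44, the hyaluronan receptor, by 6.19-fold with probes from -0.77 to 3.15. The simple epithelial keratins Krt8 and Krt18 rose by 4.18-fold and 3.12-fold. Krt19 (0.69, adjusted p = 0.383) and Itgb6 (0.24, adjusted p = 0.329) did not pass the test.

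Of 25 tested targets of p53, the factor that halts the cell cycle after damage, 13 were higher and 4 lower (52% and 16%, with 2 to 4 lower under the alternatives). Cdkn1a, the cyclin-dependent kinase inhibitor p21, read 2.71, 2.71, 2.98 and 2.63 in IPC+IRI and -2.09, -2.08, -2.07 and -1.92 in Hemin. Both groups were tight, and the rise was 4.80 (SE 0.28, 27.8-fold, adjusted p = 3.18e-09). Plk3, a stress-responsive polo-like kinase, rose by 16.2-fold, Gdf15, a secreted stress cytokine, by 9.61-fold, Trp53inp1 by 3.87-fold and Gadd45a by 2.91-fold. Mdm2, the ligase that degrades p53, rose by 2.21-fold. The 4 members that fell included the DNA repair genes Ddb2 (-0.91), Polk (-0.84) and Xpc (-0.37). Polk lost the call with normexp (-0.32, adjusted p = 0.287), and Xpc in 1 other alternative (adjusted p = 0.136). Among 17 genes of the BCL2 family, which sets the threshold of mitochondrial apoptosis, 6 were higher and 4 lower (35.3% and 23.5%, with 2 to 5 lower under the alternatives). The higher ones included the protectors Bcl2l1 (2.39-fold) and Mcl1 (2.09-fold) and the BH3-only killers Bbc3 (2.34-fold) and Pmaip1 (2.11-fold), which are also p53 targets. Bcl2 itself was lower (-0.55, adjusted p = 0.00543).

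**Figure D2:**
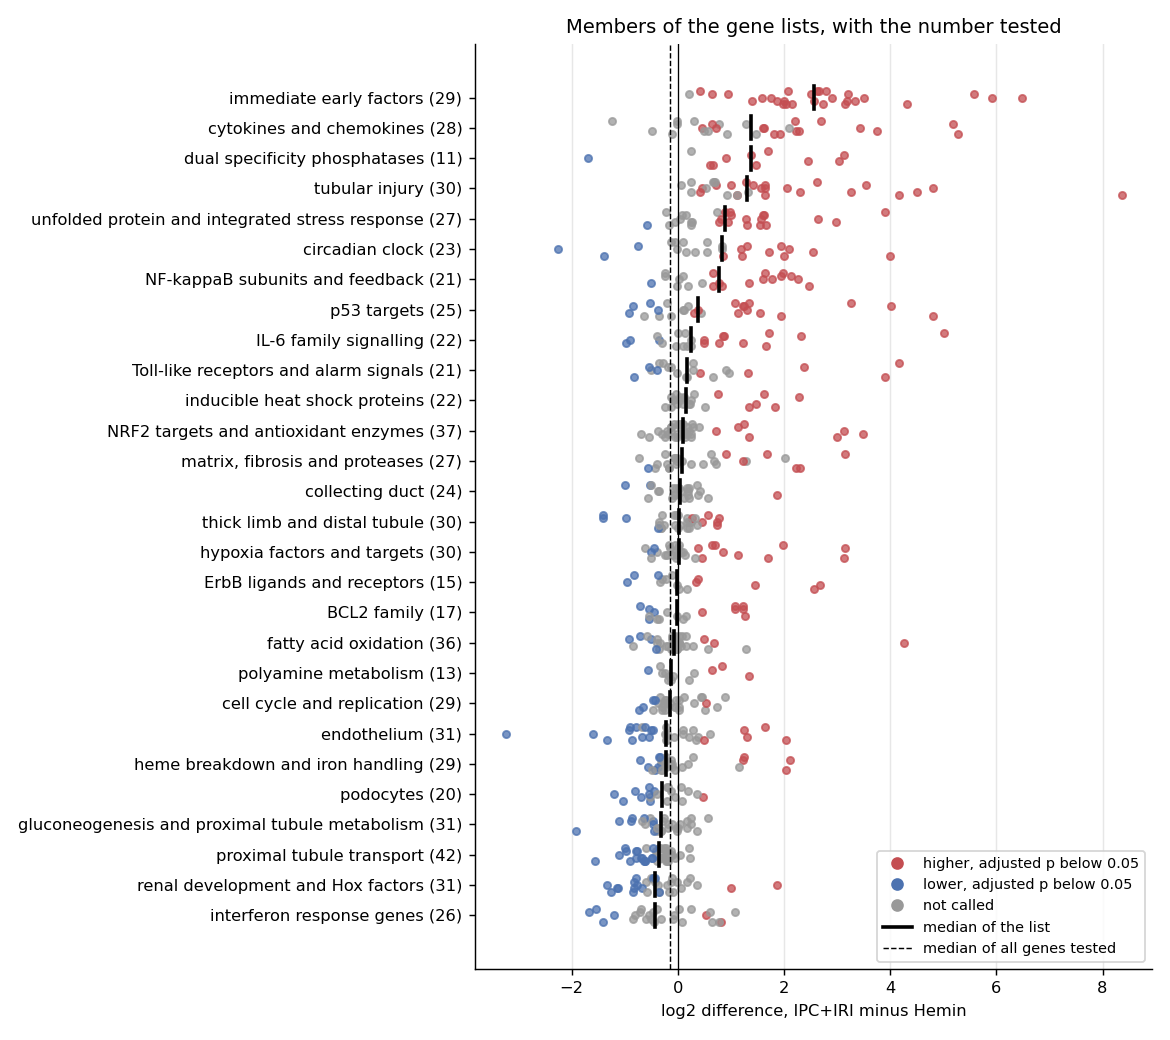
Difference between IPC+IRI and Hemin (x axis, log2) of every tested member of 28 gene lists (rows, number tested in brackets), red and blue where the adjusted p was below 0.05 and grey where it was not, with the median of each list as a black bar and that of all genes tested (-0.15) as a dashed line. The immediate early factors have a median of 2.56, and the interferon response genes one of -0.43, which was -0.096 with normexp.

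The unfolded protein and integrated stress response answers misfolded protein in the endoplasmic reticulum and amino acid shortage. Of 27 members tested, 16 were higher, 11 at least 2-fold, and 1 was lower (59.3% and 3.7%). Chac1, which degrades glutathione and is a target of the Atf4 branch, read 1.69, 2.16, 1.53 and 1.59 against -2.19, -2.94, -1.40 and -2.10, a 14.9-fold rise with no overlap. Atf4 itself rose by 3.18-fold, Ddit3, which encodes CHOP, by 2.95-fold, and Myd116, the older name of Ppp1r15a that reverses eIF2α phosphorylation, by 6.28-fold. Of the chaperones of this compartment, Hspa5, which encodes BiP, rose by 2.42-fold. Trib3, a pseudokinase induced by CHOP, read -1.75, 0.41, -1.62 and 0.20 in IPC+IRI and -2.21, -2.46, -2.20 and -2.38 in Hemin. The IPC+IRI arrays fell into 2 levels, replicates 2 and 4 being about 2 log2 units above replicates 1 and 3, and the rise was 1.62 (SE 0.38, adjusted p = 0.00304).

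Inducible heat shock proteins responded in part. Of 22 tested, 6 were higher and 0 lower (27.3% and 0%), and the list median was 0.16. Hspa1a, an inducible HSP70, read 4.82, 4.06, 3.96 and 3.60 in IPC+IRI and 2.16, 2.00, 2.71 and 2.21 in Hemin. All IPC+IRI arrays were higher, by 1.84 (SE 0.34, adjusted p = 0.000422). Hspb1, the small chaperone HSP25, rose by 4.91-fold, Hspa1b by 2.77-fold, Dnajb4 by 3.07-fold and Bag3, a partner of HSP70, by 2.54-fold. The constitutive Hspa8 (-0.099, adjusted p = 0.527) and the mitochondrial Hspd1 (-0.026, adjusted p = 0.881) did not pass the test. With the deposited matrix Hspa1b was at 1.31 (adjusted p = 0.236). Hspa1a and Hspa1b are near-identical copies, so their probes may each pick up both transcripts. Their 250-base promoter windows differ at 3 bases, and that of Hspa1b (chr17:34959239-34959488, minus strand of GRCm38.p6, from RefSeq, 5′ to 3′) is shown for its heat shock element, searched as TTCNNGAA or GAANNTTC on both strands and given in capitals at position -104.
Hspa1b: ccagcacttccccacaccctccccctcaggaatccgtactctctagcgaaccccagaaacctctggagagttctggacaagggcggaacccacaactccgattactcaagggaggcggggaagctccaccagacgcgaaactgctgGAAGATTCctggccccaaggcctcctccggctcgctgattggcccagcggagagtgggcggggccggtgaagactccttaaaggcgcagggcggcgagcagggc
The element was present in 12.8% of all promoters and in 43.5% of the 23 promoters of the heat shock list, those of Hspa1a and Hspa1b included.

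Metallothioneins are small cysteine-rich proteins that bind zinc and copper, and they gave 2 of the 3 largest rises of the list of Nrf2 targets and antioxidant enzymes. Mt2 read 7.42, 7.28, 7.20 and 7.37 in IPC+IRI and 3.77, 3.76, 3.75 and 4.09 in Hemin. Both groups were tight and far apart, and the rise was 3.48 (SE 0.19, 11.1-fold, adjusted p = 2.13e-09). Mt1 rose by 7.97-fold. The promoter of Mt2 (chr8:94172368-94172617, plus strand of GRCm38.p6, from RefSeq, 5′ to 3′) holds 3 metal response elements, searched as TGCACNC or TGCGCNC on both strands and shown in capitals.
Mt2: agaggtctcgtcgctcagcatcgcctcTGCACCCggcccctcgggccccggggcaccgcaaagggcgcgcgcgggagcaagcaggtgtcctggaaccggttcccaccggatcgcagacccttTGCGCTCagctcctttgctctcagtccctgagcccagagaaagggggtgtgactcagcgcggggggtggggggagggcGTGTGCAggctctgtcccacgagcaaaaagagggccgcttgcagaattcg
At least 1 such element was present in 21.4% of all promoters and in 22% of the 41 promoters of the list of Nrf2 targets and antioxidant enzymes. Of the 37 members of that list tested, 7 were higher, 6 at least 2-fold, and 0 lower (18.9% and 0%, with 0 to 4 lower under the alternatives). Beside the metallothioneins these were the thiol repair gene Srxn1 (8.83-fold), Txnrd1 (2.55-fold), Osgin1 (2.38-fold), Gclc (2.2-fold), the rate-limiting enzyme of glutathione synthesis, and Nqo1 (1.64-fold), which lost the call without replicate 4 of IPC+IRI (0.54, adjusted p = 0.0579). Nfe2l2, which encodes Nrf2, was at 0.13 (adjusted p = 0.524) with probes from -0.14 to 2.93, and averaging their log2 values put it at 0.92 (adjusted p = 2.59e-05). The hydrogen peroxide enzymes Cat (-0.13, adjusted p = 0.57) and Gpx1 (0.09, adjusted p = 0.595) did not pass the test.

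Heme oxygenase 1 was higher in the injured kidneys than in those given the heme oxygenase inducer. Hmox1 read 2.87, 4.65, 2.99 and 5.32 in IPC+IRI and 1.69, 1.91, 2.20 and 1.92 in Hemin. The groups did not overlap, and the IPC+IRI arrays fell into the same pairs as for Trib3, with replicates 2 and 4 above replicates 1 and 3. The difference was 2.03 (SE 0.46, 4.08-fold, adjusted p = 0.00253). In Control, scanned on another day, Hmox1 was at 1.37 ± 0.52 (SD, n = 4), and Hemin minus Control was 0.56 (adjusted p = 0.36). Bach1, the repressor that heme releases from Hmox1, read 0.060, 0.21, 0.38 and -0.030 against -1.54, -1.97, -1.97 and -2.34, a 4.32-fold rise with no overlap. Of 29 genes of heme and iron handling, 4 were higher (13.8%) and 8 lower (27.6%), shares near those of all genes, and the 8 became 1 without scaling, 4 with normexp and up to 10 otherwise. The other 2 that rose were the heme exporter gene Mfsd7b, the file's name for Flvcr1 (2.36-fold), and the ferroxidase gene Cp (2.34-fold). Those that fell moved by less than 2-fold. They included Ppox (-0.72) and Fech (-0.35), which make heme, the iron exporter Slc40a1 (-0.57), the ferritin light chain Ftl1 (-0.42) and Blvra (-0.30), which reduces biliverdin. Ftl1 lost the call without replicate 4 of Hemin (-0.35, adjusted p = 0.0725), and Fech and Blvra with the deposited matrix (-0.27 and -0.17, adjusted p = 0.201 and 0.553). The ferritin heavy chain Fth1 was at 0.28 (adjusted p = 0.188).

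**Figure D3:**
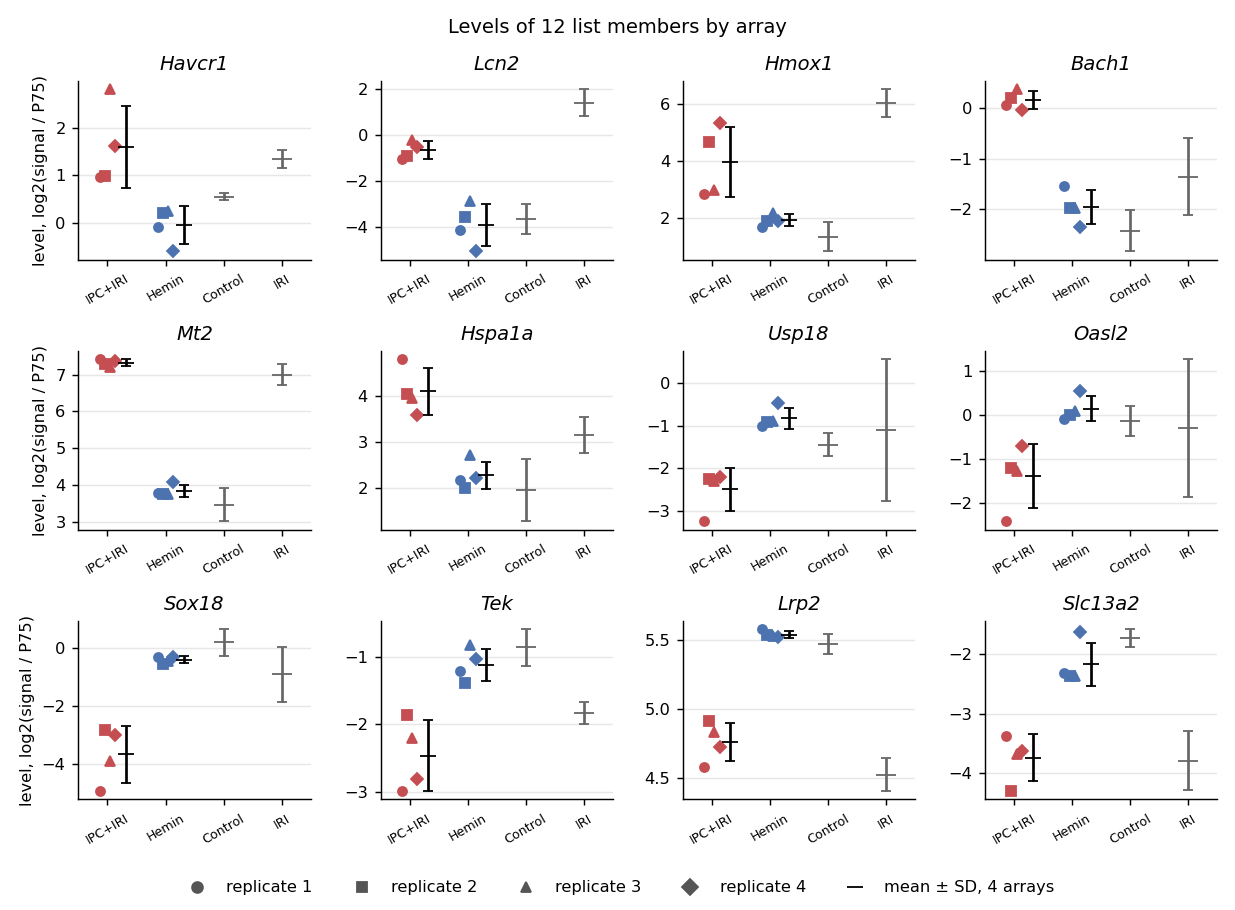
Levels (y axes, log2 of signal over the 75th percentile of the array, P75) of 12 list members on the IPC+IRI (red) and Hemin (blue) arrays, with symbols for replicates and black bars for mean ± SD of 4 arrays, and in grey the mean ± SD of the Control and IRI groups, which were scanned on another day. Hmox1 splits into 2 pairs within IPC+IRI (2.87 and 2.99, 4.65 and 5.32), and Mt2 is tight in both groups.

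Chemokines for neutrophils and monocytes were among the genes that rose. Of 40 cytokines and chemokines measured, 28 were bright enough in either group to be tested, of which 15 were higher, 12 at least 2-fold, and 0 lower (53.6% and 0%, with 8 to 16 higher under the alternatives). Of these 28, 6 entered through IPC+IRI alone, 4 of them among the 15, Il6 and Cxcl2 included, and of the 21 that were bright enough in both groups 11 were higher and 0 lower. Cxcl1, a neutrophil chemokine, read 1.61, 2.34, 2.13 and 2.93 in IPC+IRI and -4.17, -2.60, -2.29 and -3.04 in Hemin, a rise of 5.28 (SE 0.52, 38.7-fold, adjusted p = 9.46e-07). Il6 was not well above background on any Hemin array and was at least 13.1-fold higher (adjusted p = 2.79e-07), and Cxcl2, for which the same held, at least 4.12-fold higher. Ccl2, which attracts monocytes, read -1.48, 1.49, 0.72 and -0.11 against -2.84, -2.67, -1.94 and -2.71, with replicate 1 the lowest of IPC+IRI and a rise of 2.70 (adjusted p = 0.000219). Csf1 rose by 3.82-fold and Cxcl10 by 4.61-fold. Tnf, low on all arrays, was at -0.019 (adjusted p = 0.963).

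The promoter of Cxcl1 (chr5:90890995-90891244, plus strand of GRCm38.p6, from RefSeq, 5′ to 3′) is shown for its kappaB element, the site of NF-kappaB. The element is in capitals from position -71, where matches on both strands overlap.
Cxcl1: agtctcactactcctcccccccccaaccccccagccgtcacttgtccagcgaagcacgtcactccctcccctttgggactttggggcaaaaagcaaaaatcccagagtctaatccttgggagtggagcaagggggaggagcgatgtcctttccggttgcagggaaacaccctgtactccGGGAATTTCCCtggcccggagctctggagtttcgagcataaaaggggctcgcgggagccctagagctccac
A kappaB element was present in 7.25% of all promoters and in 25% of the 32 promoters of the cytokine list, that of Cxcl1 included. The share was 42.3% of the 26 promoters of the list of NF-kappaB subunits and feedback genes. Of 21 members of the latter tested, 13 were higher and 1 lower (61.9% and 4.76%), with a median of 0.77. Relb, a subunit, read 1.52, 1.60, 2.04 and 1.46 in IPC+IRI and -0.52, -0.59, -0.37 and -0.44 in Hemin. The groups were tight and separate, by 2.13 (SE 0.18, adjusted p = 1.88e-07). The subunit Rela rose by 3.04-fold (0.87, adjusted p = 0.0628, with the deposited matrix), and of the inhibitors that NF-kappaB induces, Nfkbia rose by 3.96-fold, Tnfaip3, which encodes A20, by 3.87-fold, and the nuclear cofactor Bcl3 by 5.57-fold. Icam1, an adhesion molecule for leukocytes, rose by 3.14-fold.

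Of 22 members of IL-6 family signalling, 10 were higher and 3 lower (45.5% and 13.6%, with 5 to 10 higher under the alternatives). Socs3, the feedback inhibitor of the pathway, read 3.62, 4.43, 4.42 and 4.30 against -0.91, -0.79, -0.49 and -1.07, a 32.2-fold rise (adjusted p = 2.52e-09). Osmr, the oncostatin M receptor, rose by 5.02-fold and Stat3 by 3.3-fold, while the kinase Tyk2 (-0.90) and Socs5 (-0.98) fell. Lifr, the receptor of LIF, was also called lower (-0.35), with probes from -0.48 to 0.88, and averaging their log2 values put it at 0.25 (adjusted p = 0.146). Among 21 Toll-like receptors and alarm signals, 5 were higher and 3 lower (23.8% and 14.3%, with 8 higher without replicate 1 of IPC+IRI). The higher ones were Tlr2 (2.51-fold), Cd14 (5.18-fold), Nod2 (1.34-fold) and the calprotectin chains S100a8 and S100a9, both also neutrophil markers, and those that fell were Nod1 (-0.83), Irak4 (-0.55) and Tlr9 (-0.39). Nod2 lost the call in 5 alternatives, 2 of them single arrays left out, and Irak4 in 11, and with normexp they were at 0.22 (adjusted p = 0.431) and -0.074 (adjusted p = 0.914). Tlr4 was at -0.12 (adjusted p = 0.835).

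Some neutrophil and monocyte markers were also higher, and their part in the results was not tested. Of 11 neutrophil markers measured, 4 were bright enough in both groups, of which 2, S100a8 and S100a9, were higher and 1, Mpo, lower. Another 4 were tested only because they were bright enough in IPC+IRI, and 3 of them were called higher, so those calls are no support for a rise of the list. S100a9 read 2.50, 3.74, 4.07 and 2.60 in IPC+IRI and -1.46, -1.38, 0.42 and -0.28 in Hemin, a 15-fold rise. Retnlg was not well above background on any Hemin array and was at least 16.4-fold higher. Of the granule genes, Mpo was lower (-0.57, adjusted p = 0.0422, a call lost in 11 alternatives, with -0.044 and an adjusted p of 0.967 under normexp), Ltf was at 0.095 (adjusted p = 0.864), Ela2 was not well above background on any of the 8 arrays, and Camp and Ngp were so on 1 and 2 of them. The summed level of the 11 neutrophil markers, in units of the 75th percentile, was 6.61, 16.3, 20.4 and 7.45 in IPC+IRI and 0.653, 0.772, 1.77 and 1.14 in Hemin. Levels were summed without the log2 step, and S100a9 alone made up most of this sum on each IPC+IRI array. Of 14 macrophage and monocyte markers, 6 were higher and 1 lower (42.9% and 7.14%). Cd14 rose by 5.18-fold, Cd68 by 3.48-fold and Lyz2 by 3.09-fold, with Lyz2 at 1.02 (adjusted p = 0.161) with the deposited matrix, while Csf1r was at -0.015 (adjusted p = 0.948) and Emr1, which encodes F4/80, at 0.56 (adjusted p = 0.333). Their summed level was 12.7, 33.8, 42.9 and 22.4 in IPC+IRI against 11.4, 10.1, 13.5 and 12.2 in Hemin. Replicate 1 was the lowest of the IPC+IRI arrays in both sums, while it was the highest for Fos and Atf3. None of 8 T and NK cell markers tested passed the test in either direction, and of 3 B cell markers tested Cd79b and Igh-6, the older name of Ighm, were lower (-0.91 and -1.14), both no longer with normexp (-0.30 and -0.57, adjusted p = 0.336 and 0.104), and Cd79b no longer without replicate 1 of IPC+IRI (-0.66, adjusted p = 0.0658). In whole tissue, more cells of a type and more RNA per cell cannot be told apart.

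**Figure D4:**
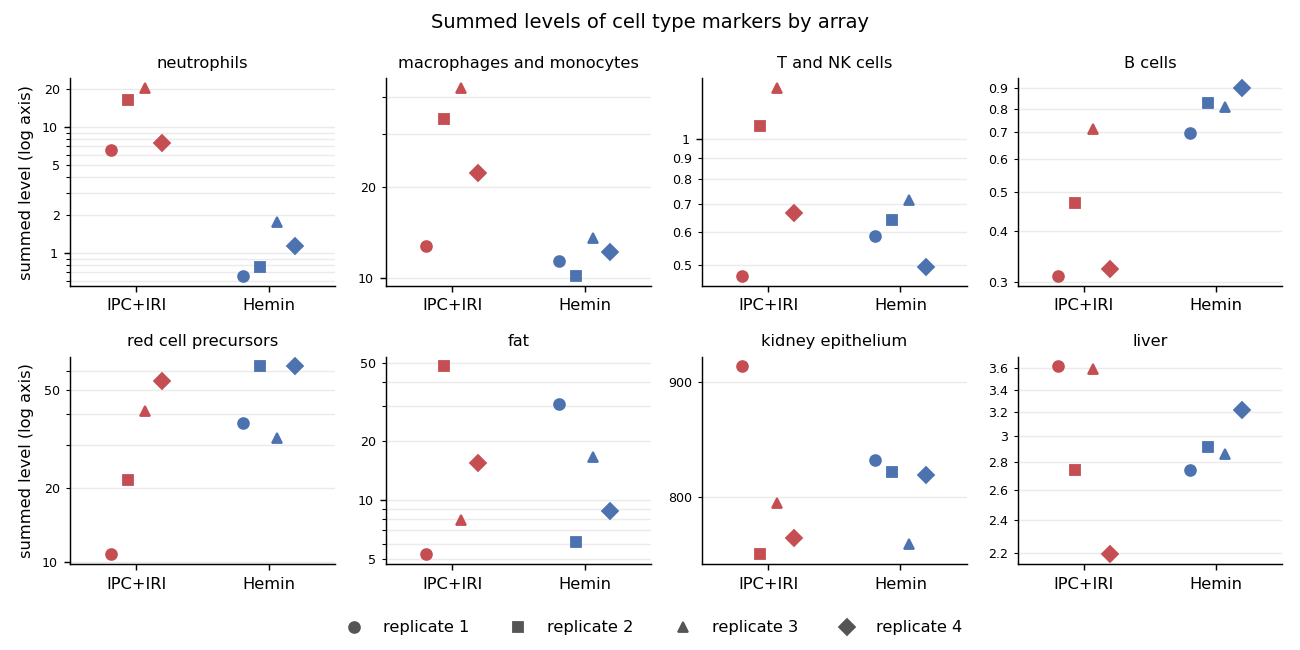
Summed level of the markers of 8 cell types on each array (y axes, log scale, in units of the 75th percentile of the array), with symbols for replicates. The neutrophil sums do not overlap between IPC+IRI (6.61 to 20.4) and Hemin (0.653 to 1.77), whereas the fat sums vary as widely within the groups as between them. S100a9 alone makes up most of the neutrophil sum on each IPC+IRI array.

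Of 26 interferon response genes tested, 2 were higher and 4 lower (7.69% and 15.4%, both below the shares of all genes). All 4 fell by at least 2-fold. The 4 became 0 without replicate 1 of IPC+IRI, 1 without each of replicates 2, 3 and 4 of Hemin, 2 with the replicate block, 2 with no filter on dim genes and 8 where the compared arrays were fitted alone. The list median was -0.43, and under the alternatives it went from -0.56 without scaling to -0.096 with normexp. Usp18, which removes ISG15 and dampens the interferon receptor, read -3.25, -2.25, -2.30 and -2.20 in IPC+IRI and -1.02, -0.91, -0.89 and -0.47 in Hemin, and Oasl2 read -2.42, -1.20, -1.26 and -0.69 against -0.078, 0.0097, 0.091 and 0.56. Neither overlapped, and the falls were -1.67 (adjusted p = 0.019) and -1.54 (adjusted p = 0.0317). Without replicate 1 of IPC+IRI, the lowest array for both, the differences were -1.42 (adjusted p = 0.0566) and -1.19 (adjusted p = 0.0996), and the other 2, Ifi44 and Oas1a, also lost the call, going from -1.41 to -1.06 (adjusted p = 0.114) and from -1.20 to -1.04 (adjusted p = 0.107). Ifi44 and Oas1a lost it in 7 and 9 alternatives, the replicate block (adjusted p = 0.053 and 0.0564) and no filter on dim genes (0.0523 and 0.0666) among them, and Oasl2 in 5. Irf1 (1.76-fold) and Irf8 (1.45-fold) were the 2 that rose, and Irf8 lost the call in 12 alternatives, 6 of them single arrays left out (adjusted p from 0.0523 to 0.356 over the 12).

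Of 30 hypoxia factors and targets, 10 were higher, 5 at least 2-fold, and 2 lower (33.3% and 6.67%, with 6 to 10 higher under the alternatives). Hk2, which traps glucose in the cell, rose by 8.73-fold, Edn1, the vasoconstrictor endothelin 1, by 3.96-fold and Adm, the vasodilator adrenomedullin, by 3.23-fold, while Vegfa was lower (-0.44, adjusted p = 0.0274), with probes from -0.67 to 0.16 and no call in 9 alternatives (adjusted p from 0.0531 to 0.339). Of 15 ErbB ligands and receptors, 5 were higher and 3 lower (33.3% and 20%, with 2 to 5 higher under the alternatives, and 3 without replicate 1 or 2 of Hemin or 2 or 3 of IPC+IRI). Hbegf, a ligand of the EGF receptor, read 4.91, 3.84, 4.58 and 3.14 against 1.35, 1.78, 1.43 and 1.65, a 5.92-fold rise, and Nrg1, a ligand of ErbB3 and ErbB4, rose by 6.38-fold. Egf, made by the thick limb and distal tubule, was lower (-0.38, adjusted p = 0.0163, and 0.0507 without replicate 3 of IPC+IRI) and so was Erbb2 (-0.82). Of 27 matrix and protease genes, 6 were higher and 1 lower (22.2% and 3.7%), the higher ones including Timp1 (4.94-fold) and Adamts1 (4.66-fold). Of 29 cell cycle and replication genes, 1 was higher, Pcna (1.45-fold, adjusted p = 0.197 without scaling), and 4 were lower, among them Ccnd1 (-0.73). These are 3.45% and 13.8%, below the shares of all genes, with 1 to 6 lower under the alternatives. Of 13 genes of polyamine metabolism, 3 were higher and 1 lower (23.1% and 7.69%).

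Transport genes of the proximal tubule were lower or did not pass. Of 42 tested, 0 were higher and 16 lower (0% and 38.1%), with a median of -0.35 against -0.15 over all genes, and 2 fell by at least 2-fold. The 16 became 10 with normexp, 13 without scaling and up to 19 otherwise. Slc13a2, the citrate transporter, read -3.37, -4.30, -3.68 and -3.63 in IPC+IRI and -2.33, -2.38, -2.37 and -1.64 in Hemin, a fall of -1.56 (SE 0.32, adjusted p = 0.001). With normexp it was at -0.42 (adjusted p = 0.359). Slc34a3, a phosphate transporter, fell by 1.10 on the log2 scale, while Slc34a1, the main phosphate transporter, read 6.94, 6.82, 6.88 and 6.46 against 6.80, 7.13, 6.95 and 7.02 and did not pass (adjusted p = 0.27). Lrp2, the endocytic receptor megalin, read 4.58, 4.91, 4.83 and 4.72 against 5.58, 5.54, 5.53 and 5.52. The groups were separate, by -0.78 (SE 0.10, adjusted p = 1.49e-05), but its 4 probes ranged from -0.86 to -0.25 and the deposited matrix gave 0.84 (adjusted p = 0.26). Of 31 genes of gluconeogenesis and proximal tubule metabolism, 0 were higher and 8 lower (0% and 25.8%, the latter near that of all genes, with 5 to 10 lower under the alternatives and 5 without replicate 2 of Hemin), and Dio1, which activates thyroid hormone, fell most (3.79-fold, adjusted p = 4.06e-07). Of 36 genes of fatty acid oxidation, 3 were higher and 4 lower (8.33% and 11.1%, both below the shares of all genes). The 4 became 2 without replicate 2 and 8 without replicate 4 of IPC+IRI. Pdk4, a mitochondrial kinase that inhibits pyruvate dehydrogenase, read 3.96, 4.97, 4.26 and 5.24 against 0.93, 0.29, 0.18 and -0.041, a 19.3-fold rise, while Cpt1a was at -0.022 (adjusted p = 0.927).

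Of 30 thick limb and distal tubule genes, 6 were higher and 4 lower (20% and 13.3%). The 6 became 0 without scaling, 2 with normexp, 2 with the deposited matrix, and 3 without replicate 3 of Hemin or replicate 1 of IPC+IRI. Bsnd, the barttin subunit of the chloride channels, fell by 2.66-fold and Klhl3, which controls the salt cotransporter kinases, by 2.64-fold, and Slc12a3, the thiazide-sensitive cotransporter, rose by 1.67-fold. Umod was at 0.18 (adjusted p = 0.392). Of 24 collecting duct genes, 1 was higher and 2 lower (4.17% and 8.33%, both below the shares of all genes). The 1 was Sgk1, a kinase that raises sodium uptake (3.66-fold), whose 2 probes gave -1.12 and 1.87 and which lost the call when log2 values of probes were averaged (0.38, adjusted p = 0.447). Of 20 podocyte genes, 1 was higher and 8 lower (5% and 40%, with 4 to 8 lower under the alternatives and 5 without replicate 1 or 3 of Hemin), among them the slit diaphragm gene Nphs1 (-0.53) and the basement membrane chains Col4a3 (-0.80) and Col4a4 (-0.55).

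Of 31 endothelial genes tested, 5 were higher and 12 lower (16.1% and 38.7%), and with normexp 4 and 7. Sox18, a factor of endothelial identity, read -4.94, -2.84, -3.89 and -2.99 in IPC+IRI and -0.33, -0.57, -0.47 and -0.32 in Hemin. Replicate 1 was the lowest, the groups did not overlap, and the fall was -3.24 (SE 0.45, 9.47-fold, adjusted p = 3.53e-05). Lyl1, a blood and vessel factor, fell by 3.03-fold, Tek, the receptor of angiopoietins, by 2.54-fold, and Gata2 by 1.82-fold. Vcam1 rose by 4.07-fold, with probes from -0.031 to 3.57, Thbd, the thrombin cofactor thrombomodulin, by 2.48-fold and Nos3, the endothelial nitric oxide synthase, by 2.36-fold. The pan-endothelial Cdh5 (0.38, adjusted p = 0.297, and 0.66 with an adjusted p of 0.046 without replicate 1 of IPC+IRI), Pecam1 (-0.22, adjusted p = 0.639) and Kdr (-0.20, adjusted p = 0.381) did not pass.

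Of 31 renal development and Hox factors, 2 were higher and 13 lower (6.45% and 41.9%), with a median of -0.42 that was -0.12 with normexp. Hoxd3 fell by 2.38-fold, Hoxa11 by 2.52-fold and Hoxd4 by 2.21-fold, while Pax8 rose by 2-fold. Hoxd4 lost the call without replicate 3 of Hemin (-1, adjusted p = 0.0596) and Hoxd3 with normexp (-0.27, adjusted p = 0.496). Pax8 lost it in 1 other alternative (adjusted p = 0.0775). With normexp 1 of the 31 was higher and 8 lower. The other named falls were Clic6, Fam101a, Wdr86, Cphx, Tbxa2r, Bbs10, Tnfrsf25, 4933406C10Rik, B130024G19Rik, 9530096D07Rik, Frem2, Crip3 and Zfp324, from -2.98 for Clic6 to -2.23 for Zfp324. Tbxa2r is the thromboxane receptor, Bbs10 a chaperonin-like protein of the cilium and Frem2 a basement membrane protein. All except Zfp324 (-0.46, adjusted p = 0.228) kept an adjusted p below 0.05 with normexp, at sizes from -1.48 for Clic6 to -0.84 for Crip3.

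Clock genes are often affected by hour of killing, which the labels do not give, and 10 of 23 were higher and 3 lower (43.5% and 13%). Nfil3, a repressor of the D-box, read 3.16, 2.09, 2.52 and 1.72 in IPC+IRI and -1.13, -2.01, -1.52 and -1.81 in Hemin, a 15.9-fold rise. Dbp, the activator that competes with Nfil3 for the same sites, read 3.08, 2.10, 3.08 and 3.07 against 5.02, 5.12, 4.81 and 5.38, a 4.76-fold fall (adjusted p = 0.00522). Both sets of arrays were separate, in opposite directions. Tef, of the same family as Dbp, also fell (-0.75, and -0.60 with an adjusted p of 0.0913 without replicate 2 of IPC+IRI), Per1 rose by 3.83-fold and Per3 was 2.63-fold lower, a call lost with normexp (-0.27, adjusted p = 0.591). Arntl, which encodes BMAL1, was 4.01-fold higher (adjusted p = 0.0355), with replicate 4 of IPC+IRI at -0.98 and the other 3 from 0.44 to 0.60, and it lost the call in 9 alternatives, among them 7 of the 8 single arrays left out and the replicate block (adjusted p from 0.0524 to 0.0858).

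The same injury without preconditioning or hemin was measured in IRI against Control, 4 arrays each, scanned together on another day and sharing no array with the comparison above. There, 1058 of 17719 genes (5.97%) rose by 2-fold or more and 2533 (14.3%) fell by as much, with a median of -0.17. Over 17282 genes tested in both, the log2 differences had a Pearson r of 0.779, across genes that are not independent replicates. Of the 856 genes higher in IPC+IRI over Hemin, 643 were also higher in IRI over Control, which is 75.1% of the first list and 62.1% of the 1036 of the second. Of the 830 lower genes, 573 were shared, 69% of the first list and 25.1% of the 2279 of the second, and 2 genes were called in opposite directions.

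**Figure D5:**
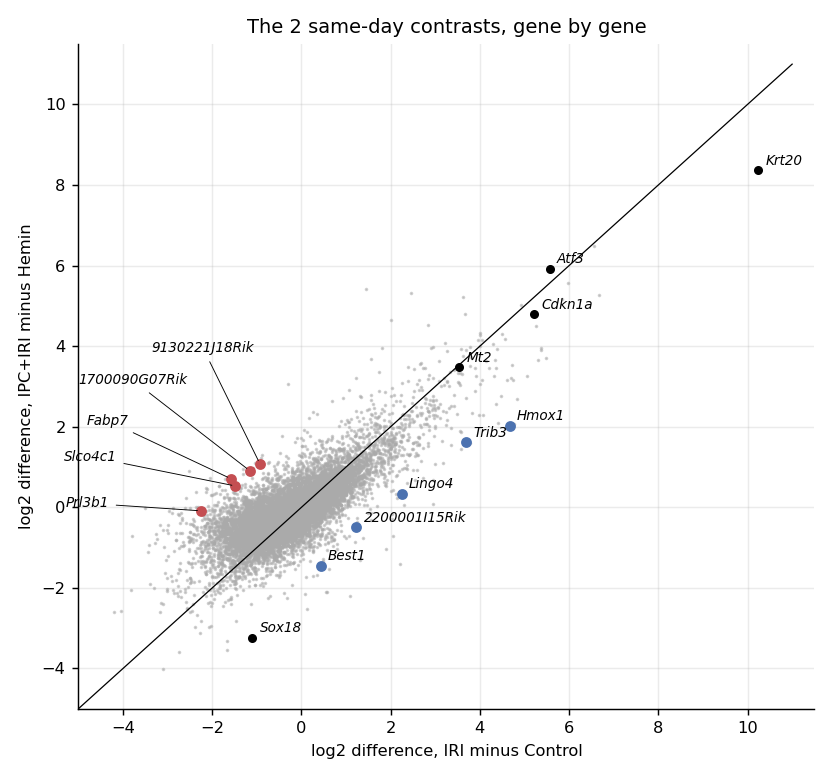
Log2 difference between IRI and Control (x axis) and between IPC+IRI and Hemin (y axis) of each of 17282 genes (grey), with the line of equal differences, 5 genes of the text in black, and the 5 most positive (red) and 5 most negative (blue) differences between the 2 contrasts among called genes that all 16 arrays measured well above background. Mt2, Atf3 and Cdkn1a lie near the line, and Hmox1, the most negative of these, lies 2.64 below it.

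The difference between the 2 contrasts was tested in the same fit. Of 18981 genes, 464 (2.44%) were more positive in IPC+IRI over Hemin than in IRI over Control by at least 1 on the log2 scale at an adjusted p below 0.05, and 57 (0.3%) more negative. Of these 521 genes, 233 were well above background on all 16 arrays, 48 were olfactory or vomeronasal receptors and 182 had at least 1 group with no array well above background. With normexp 1 and 0 genes were called. A difference here can come from preconditioning, from hemin, or from scan day and slide, which cannot be told apart. Ribosomal RNA levels also differed in range. The sum over 2 ribosomal RNA genes, in units of the 75th percentile, ran from 171 to 266 in IPC+IRI and from 172 to 196 in Hemin, against 23.6 to 215 in Control and 8.99 to 68.9 in IRI, and the part of this in the difference was not tested.

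Among the called genes well above background on all 16 arrays, Hmox1 was the most negative. It was at 6.03 ± 0.48 (SD, n = 4) in IRI and rose by 4.67 from Control, against 2.03 from Hemin to IPC+IRI, a difference of -2.64 (SE 0.66, adjusted p = 0.0325), with replicates 2 and 4 of IPC+IRI nearer to the IRI level than replicates 1 and 3. The call was lost in 14 of the alternatives, with adjusted p values of 0.0502 to 0.336 at differences of -2.27 to -2.89. Trib3, with the same pairs of arrays, differed by -2.07 (SE 0.54, adjusted p = 0.0402), having risen by 3.70 in IRI over Control and by 1.62 here, and lost the call in 20 alternatives, 13 of them single arrays left out (adjusted p from 0.0503 to 0.569, with 0.0539 under the replicate block). Best1, a calcium-activated chloride channel, was 2.74-fold lower here (adjusted p = 7.39e-05) and differed by -1.88, but with normexp these were -0.32 (adjusted p = 0.341) and -0.64 (adjusted p = 0.801), and Lingo4 (-1.91) and 2200001I15Rik (-1.72) were the other 2. On the positive side were Fabp7, a fatty acid binding protein (2.29, SE 0.34, adjusted p = 0.00183), Prl3b1, a placental lactogen (2.16), 1700090G07Rik (2.06), 9130221J18Rik, the older name of the bile acid transporter Slc10a2 (2.01), and the organic anion transporter Slco4c1 (2.01). With normexp none of these 10 genes kept the call (adjusted p of 0.0551 or more). Lingo4 lost it in 8 alternatives, and 9130221J18Rik without replicate 3 of Hemin (1.87, adjusted p = 0.0586). The 464 and 57 genes became 265 and 32 without that array. Fabp7 fell by 1.58 in IRI over Control and was 0.71 higher in IPC+IRI than in Hemin, a call lost in 7 alternatives, 4 of them single arrays left out (adjusted p from 0.0502 to 0.107), and Prl3b1 fell by 2.25 in the first and was at -0.087 in the second. Fos (0.31, adjusted p = 0.896), Mt2 (-0.059, adjusted p = 0.934) and Cdkn1a (-0.41, adjusted p = 0.609) did not pass this test.

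Markers of other tissues were measured on the same arrays. Fat markers varied within both groups, with a summed level of 5.28, 48.2, 7.91 and 15.4 in IPC+IRI and 30.9, 6.12, 16.6 and 8.75 in Hemin, and 0 of 5 tested passed. Of 7 liver markers, 2 were lower (28.6%), Ttr (-1.63) and Apoa1 (-1.08), and of 4 red cell precursor markers 1, Klf1, was lower (-0.93), while with normexp Apoa1 was at -0.02 (adjusted p = 0.986) and Klf1 at -0.23 (adjusted p = 0.495), and Hba-a1 was at -0.82 (adjusted p = 0.244). Of 5 adrenal cortex markers, 1 was higher and 1 lower (20% each), and of 4 skeletal muscle markers 0 passed in either direction. The smallest p that an exact permutation test of 4 arrays against 4 can give is 0.0286, which each gene with separate groups reached.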

How the data were processed

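Whole-kidney RNA was hybridised to 20 one-colour (Cy3) Agilent arrays, of which the 4 IPC+IRI and 4 Hemin arrays were compared. The deposited scanner files hold intensity values that the authors obtained with Agilent Feature Extraction 9.5.3.1, background-subtracted and detrended within each array and not scaled between arrays. The deposited matrix holds log2 values of the same processed signals, 100% of them within 0.001 of the scanner values for probes with 1 spot and 18.1% of them blank. Per the methods, RNA had passed an integrity check. The number of arrays limits the precision. The normexp alternative also added an offset of 50 to every signal, and the 2 were not separated.

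Control spots and spots marked as outliers were left out (43379 non-control spots, 41174 probes). The processed signal was averaged over the probes of each of 27827 gene names, divided by the 75th percentile of its array and log2 transformed, and 19943 names had a current symbol. A gene was tested where no more than 1 of the 8 values was missing and 3 or 4 arrays in one of the groups were well above background. limma 3.58.1 (R 4.3.3, data.table version 1.17.8) was fitted to all 20 arrays with 5 group means and 15 residual degrees of freedom, with Benjamini-Hochberg adjustment over all genes. Genes were called at an adjusted p below 0.05, and 2-fold calls are given beside them. The difference (IPC+IRI minus Hemin) minus (IRI minus Control) was tested in the same fit. "At least" folds set the brighter group against the background limit of arrays on which a gene was not well above background. On simulated data, 100 genes were changed by 3-fold and another 100 by 4-fold. For the main comparison (18544 genes), 91% and 99% of them were recovered, with 7 false calls among the other genes. For the difference (18981 genes), 74% and 83% were recovered, with 6 false calls.

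The members and lists were chosen with earlier results of these data known. The genes named were the 15 largest rises and 15 largest falls among called genes well above background on all 8 arrays with separate groups, members of the lists and marker lists, the 5 largest differences between the contrasts in each direction on 16 arrays, and Hmox1. Of each list, the defining member and those with the largest changes were to be given by array, and other members named were chosen after their values were seen. Some list members are not reported here. Promoters and symbols came from RefSeq tables of GRCm38.p6. The alternatives covered background correction, scaling, probe averaging, the deposited matrix, the filter, the arrays fitted, the replicate number as a block, single arrays left out, fold limits and SAM, the test of the study's methods.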

Additional observations from a re-analysis of the deposited data

Results flagged for a closer look

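An array stood apart from the other 3 of its group, by a gap to the nearest that exceeded Dixon's critical value, in 26 of 396 groups of 4 values over 198 genes, where chance flags about 1 in 20. The values given are those of the array that stood apart. In IPC+IRI, replicate 1 was the lowest for Lyl1 (-3.46), Nrg1 (-0.87), Socs3 (3.62) and Usp18 (-3.25). Replicate 2 was the lowest for Dbp (2.10), Gpx1 (7.24), Tef (0.44) and Tlr9 (0.39), replicate 3 for Gata2 (-0.50), and replicate 4 for Arntl (-0.98).

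In Hemin, replicate 3 was the highest for Cd14 (-0.90), Hspa1b (0.34), Osgin1 (1.78) and Osmr (-0.85), and the lowest for 4933406C10Rik (-1.08), Frem2 (-1.05) and Tef (1.54). Replicate 4 was the highest for Cdkn1a (-1.92), Mt2 (4.09) and Slc13a2 (-1.64), and the lowest for Arntl (-2.28) and Lingo4 (-4.38). Replicate 2 was the highest for Mafg (1.27) and Slc40a1 (1.96) and the lowest for Nos3 (-1.49), and replicate 1 was the lowest for Pax8 (-1.88).

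The difference between the IPC+IRI over Hemin and the IRI over Control contrasts passed its own test for 521 genes, and those given are the 5 largest in each direction of the genes that all 16 arrays measured well above background. It was positive for Fabp7 (2.29), Prl3b1 (2.16), 1700090G07Rik (2.06), 9130221J18Rik (2.01) and Slco4c1 (2.01), and negative for Hmox1 (-2.64), Trib3 (-2.07), Lingo4 (-1.91), Best1 (-1.88) and 2200001I15Rik (-1.72).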

How the results depend on the processing

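The 978 higher and 1000 lower genes became 422 and 120 with normexp background correction and its offset of 50, which kept 42.9% and 10.6% of them, 2440 and 4233 at an adjusted p alone, 449 and 228 at 3-fold and 619 and 442 by SAM, and the lower genes 591 where all arrays compared had to be above background. They were 973 and 998 with the replicate block. The replicate numbers do not pair the arrays, since the deviations of same-numbered arrays correlated at -0.0313, -0.339, -0.112 and 0.107. Leaving out 1 array gave 875 to 1099 higher and 864 to 1102 lower genes.

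The 464 more positive and 57 more negative genes of the difference of contrasts became 1 and 0 with normexp, 85 and 16 without scaling, 206 and 98 with quantile normalization, 177 and 33 where all arrays had to be above background, and 199 and 18 at 3-fold. The positive ones were 718 with the percentile taken over probes above background, and the negative ones 28 with the deposited matrix and 126 at an adjusted p alone. They were 406 and 47 with the replicate block. Leaving out 1 array gave 265 to 554 and 32 to 86, both lowest without replicate 3 of Hemin. The cause of these changes was not tested.

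Of the values for named genes under the alternatives, 3943 kept direction and side of the threshold, 200 lost the call, 6 gained it and 2 reversed, Lrp2 (0.84, deposited matrix) and Lifr (0.25, mean of log2 values). Of the list counts, 1036 stayed within 1.5 times and 124 did not, most often with normexp (20), without scaling (19) and with the deposited matrix (15), and in 5 to 8 cases for each array left out. The slide as a random block was not run, since no slide holds arrays of more than 1 group. Using only probes measured on all 20 arrays, chosen after seeing the data, gave 979 and 1000 genes, and 464 and 58.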
